A study of Mus musculus with 14 samples.

Results

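Transcription factor (TF) binding was examined around 9 genes that encode regulators of mesoderm formation: the T-box factors T (Brachyury, named Tbxt in newer annotations), Eomes and Tbx6, the basic helix-loop-helix factors Mesp1 and Hand1, the homeodomain factor Mixl1, the forkhead factor Foxf1, and the zinc-finger factors Gata4 and Gata6. A peak was assigned to a gene if it overlapped the RefSeq span of that gene extended by 30 kb on each side, here called its window. All 9 symbols were found among the 21774 protein-coding genes of the GRCm38 annotation, and 106 of the 158488 peaks lay in their windows. The peaks came from 14 lists, each from chromatin immunoprecipitation and sequencing (ChIP-seq) with 1 antibody in 1 sorted population, and no group had a replicate. The paper also reports peaks of further factors, and those were not used here. Among them are POU5F1 in mesoderm cells, TAL1 and LMO2 from hemangioblasts on, FLI1 from hemogenic endothelium on, and TEAD4 in FLK1+ hemangioblasts.

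All populations were differentiated in culture from a mouse embryonic stem (ES) cell line of 129 origin that carries a green fluorescent protein (GFP) reporter driven by the Brachyury locus. Mesoderm (MES) cells were sorted as Bry.GFP+ FLK1- and gave lists for C/EBPβ and ELK4. Hemangioblast (HB) cells, Bry.GFP+ FLK1+, gave lists for C/EBPβ and GATA2. Hemogenic endothelium (HE), Tie2+ Ckit+ CD41- and also labelled Bry.GFP+, gave only a C/EBPβ list among those used. A carrier of mouse mRNA and recombinant histone was added to these scarce cells. Hematopoietic progenitors (HP), CD41+, gave lists for C/EBPβ, GATA1, GATA2, GFI1B, RUNX1 and PU.1. Macrophages (MAC), CD11b+ and grown from CD41+ cells, gave lists for C/EBPβ, RUNX1 and PU.1. The member gene T is therefore also the source of the reporter used to sort the MES and HB cells. Peak positions carry no expression values, so the identity of the sorted cells could not be checked against their markers, and binding in few cells could not be told apart from binding in all of them.

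Mesoderm arises at the primitive streak, where T and Eomes, targets of Nodal and Wnt signals, are among the earliest factors switched on and Mixl1 is induced with them. Mesp1 then marks early cardiovascular and cranial mesoderm, Tbx6 directs presomitic mesoderm, Hand1 and Foxf1 act in lateral plate and extraembryonic mesoderm, and Gata4 and Gata6 act in cardiac mesoderm and endoderm. The immunoprecipitated factors belong mostly to the later blood program: GATA2 and RUNX1 in the formation of blood stem and progenitor cells, GFI1B as a repressor in the same cells, GATA1 in the erythroid and megakaryocytic lineages, and PU.1 and C/EBPβ in myeloid cells. ELK4 is an ETS-domain partner of serum response factor.

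In the 5 lists from MES, HB and HE cells, 1 of the 9 genes carried a peak. This was Foxf1, with 1 ELK4 peak in MES cells whose centre lay 637 bp upstream of the start of transcription. Over all coding-gene windows, 14.8% had a peak in these early lists. In the 6 lists from HP cells, 8 of the 9 genes had a peak, against 55.4% of coding windows, and Gata4 was the exception. In MAC cells all 9 genes had at least 1 C/EBPβ peak and at least 1 PU.1 peak, as did 75.2% of coding windows. By stage, the 106 peaks comprised 1 from MES, 17 from HP and 88 from MAC lists, and 30 of the 126 combinations of list and gene were occupied, against 19.4% of the combinations over all coding windows. The 6 lists without a peak in any of the 9 windows were MES C/EBPβ, HB C/EBPβ, HB GATA2, HE C/EBPβ, HP GATA1 and MAC RUNX1.

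**Figure D1:**
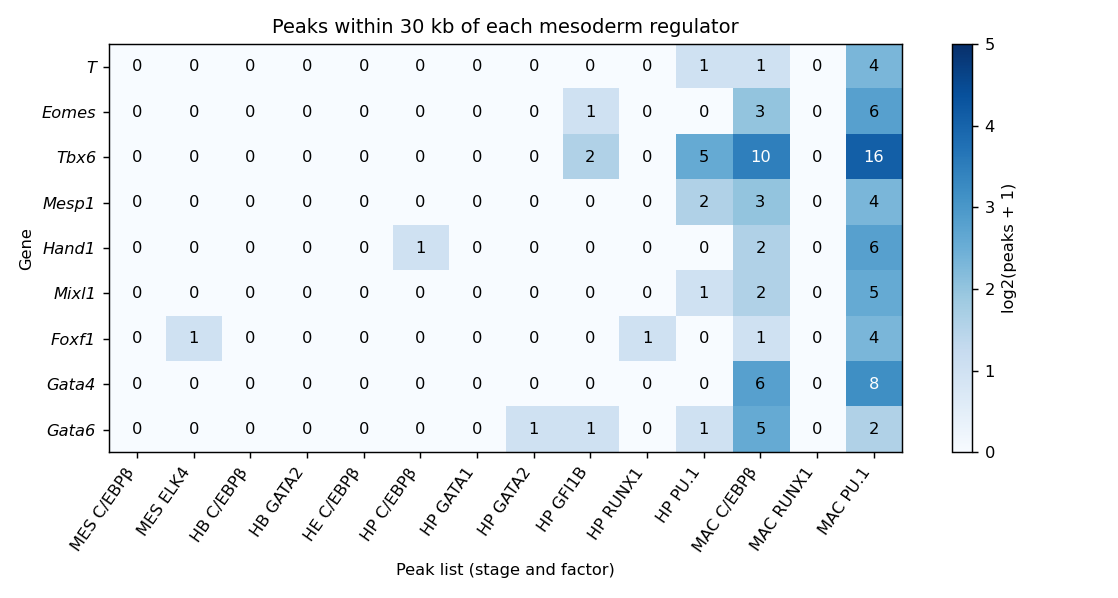
Number of peaks of each list (columns, stage and factor) in the window of each mesoderm regulator (rows), written in each cell and shaded as log2(peaks + 1). The only peak in the 5 MES, HB and HE columns is that of ELK4 at Foxf1, whereas the MAC C/EBPβ and MAC PU.1 columns are filled for all 9 genes.

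Of the 22 regions held by more than 1 list, 6 are shown first as sequence, 1 for each of 6 genes. They include the region of the only MES peak and 3 of the 4 regions held by 3 lists. Each run is 200 bases of the forward strand of GRCm38, read 5′ to 3′ from the RefSeq genome and centred on the stretch common to the overlapping peaks. Capitals mark, on either strand, the consensus of those factors that had a peak at the region (TTGCNNAA for C/EBPβ, GAGGAAGT for PU.1, TGTGGTT for RUNX1, AATCNNNGC for GFI1B, CCGGAAGT for ELK4). A run without capitals holds no such match, although it may hold the consensus of another factor, as that of T does for C/EBPβ.
Foxf1, MES ELK4 and HP RUNX1, chr8:121083599-121083798: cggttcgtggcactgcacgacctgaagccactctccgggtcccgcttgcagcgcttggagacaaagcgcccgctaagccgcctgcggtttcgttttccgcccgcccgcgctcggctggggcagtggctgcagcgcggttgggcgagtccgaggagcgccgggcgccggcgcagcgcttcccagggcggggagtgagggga
Mixl1, HP PU.1, MAC C/EBPβ and MAC PU.1, chr1:180698107-180698306: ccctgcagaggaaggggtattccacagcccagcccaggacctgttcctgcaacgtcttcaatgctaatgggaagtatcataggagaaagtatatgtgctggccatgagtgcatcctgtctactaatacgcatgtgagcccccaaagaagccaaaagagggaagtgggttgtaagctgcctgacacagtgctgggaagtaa
Hand1, HP C/EBPβ, MAC C/EBPβ and MAC PU.1, chr11:57851044-57851243: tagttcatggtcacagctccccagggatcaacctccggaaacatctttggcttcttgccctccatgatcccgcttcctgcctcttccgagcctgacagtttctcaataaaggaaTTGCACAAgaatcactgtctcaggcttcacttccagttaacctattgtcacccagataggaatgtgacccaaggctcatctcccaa
T, HP PU.1 and MAC PU.1, chr17:8409061-8409260: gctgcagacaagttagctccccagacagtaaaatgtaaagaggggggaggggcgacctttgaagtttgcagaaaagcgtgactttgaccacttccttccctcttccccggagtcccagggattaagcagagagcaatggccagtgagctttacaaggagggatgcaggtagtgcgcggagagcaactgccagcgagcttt
Eomes, HP GFI1B, MAC C/EBPβ and MAC PU.1, chr9:118488903-118489102: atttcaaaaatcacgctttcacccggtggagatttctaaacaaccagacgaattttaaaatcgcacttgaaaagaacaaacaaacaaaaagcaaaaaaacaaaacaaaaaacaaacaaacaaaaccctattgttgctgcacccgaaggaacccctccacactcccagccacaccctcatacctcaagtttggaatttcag
Mesp1, MAC C/EBPβ and MAC PU.1, chr7:79780421-79780620: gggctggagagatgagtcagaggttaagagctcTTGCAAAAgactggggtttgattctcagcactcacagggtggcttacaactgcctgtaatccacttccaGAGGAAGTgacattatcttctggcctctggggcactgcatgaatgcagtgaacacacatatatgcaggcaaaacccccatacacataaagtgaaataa
The Foxf1 run stood apart in composition, with 72.5% G + C and 27 CpG dinucleotides, whereas the other runs held between 0 and 6 CpG and between 39.0% and 54.0% G + C. Of the 4 printed runs bound at both HP and MAC, that of Hand1 held the consensus of a factor bound there, TTGCACAA. Among the regions not printed, the HP and MAC PU.1 peaks near Mesp2 and in Gdpd3 held GAGGAAGT, and the HP GFI1B peak near Ypel3 held the GFI1B consensus. The Mesp1 run held both TTGCAAAA and GAGGAAGT, and 85.5% of it is soft-masked as repeat in the genome file.

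The share of all coding-gene windows with a peak gives the background against which each list was read. For the early lists this share was 7.83% for MES C/EBPβ, 5.75% for MES ELK4, 5.14% for HB C/EBPβ, 0.423% for HB GATA2 and 0.85% for HE C/EBPβ, and the counts among the regulators were 0 of 9 for every list but MES ELK4, with 1 of 9. Over the 5 early lists together, 1 of 9 regulators (11.1%) had a peak against 14.8% of coding windows. The same gene was counted at 10 kb on each side, where the background was 9.58%, and when the closest start was also required, where it was 7.31%, so the count lay below or above the background according to the rule. When the windows were widened to 100 kb on each side, the count stayed at 0 of 9 for MES C/EBPβ (16.9% of coding windows), for HB C/EBPβ (11.2%), for HB GATA2 (0.896%) and for HE C/EBPβ (2.04%), and it rose to 2 of 9 for MES ELK4 (11.6%).

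In the HP lists, PU.1 reached 5 of the 9 genes (background 44.1%), namely T, Tbx6, Mesp1, Mixl1 and Gata6. GFI1B reached Eomes, Tbx6 and Gata6, 3 of 9 (14.4%). C/EBPβ reached Hand1 alone (17.9%), RUNX1 reached Foxf1 alone (9.43%), GATA2 reached Gata6 alone (4.19%), and GATA1 reached none (2.23%). Across the 6 HP lists, 8 of 9 genes had a peak against 55.4% of coding windows. If the gene also had to be the one whose start lay closest to the peak, 6 of 9 remained (T, Eomes, Hand1, Mixl1, Foxf1 and Gata6) against 35.9% of coding genes. In the MAC lists, C/EBPβ and PU.1 reached 9 of 9 genes each, where the backgrounds were 77.3% and 81.3%, and RUNX1 reached 0 of 9 (0.602%). Both MAC C/EBPβ and MAC PU.1 peaks were present in 75.2% of all coding windows. With windows of 10 kb on each side, HP PU.1 reached 2 of 9 genes (30.8%). MAC C/EBPβ and MAC PU.1 then reached 6 of 9 each (67.9% and 75.2%). None of these counts lay above its background any longer, and that of MAC C/EBPβ lay close to it. These counts describe single lists, and no test could be applied to them.

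**Figure D2:**
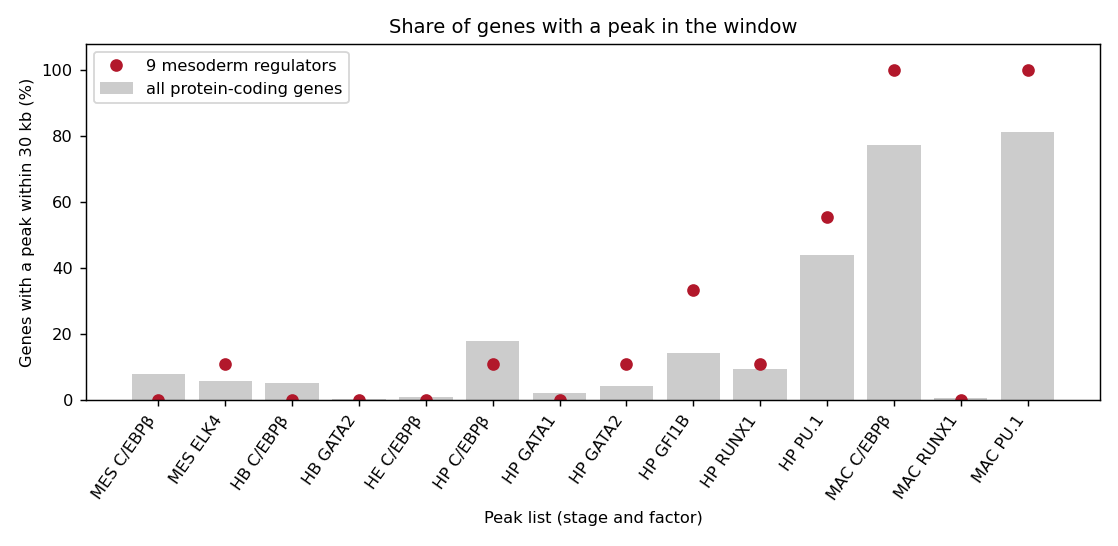
Percentage of the 9 mesoderm regulators (points) and of all 21774 protein-coding genes (bars) with at least 1 peak within 30 kb, for each of the 14 lists. For MES C/EBPβ the point lies at 0 and the bar at 7.83%, and for MAC PU.1 the point lies at 100 and the bar at 81.3%.

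Fewer peaks lay near the starts of transcription, a much shorter stretch than the windows. A total of 12 peaks at 7 of the genes had their centre within 2 kb of the gene's own start, where 59.3% of coding genes had such a peak in any of the 14 lists. MES ELK4 and HP RUNX1 each had such a peak at Foxf1, where 1.92% and 3.2% of coding genes did. HP GATA2 had one at Gata6 (0.757%) and HP PU.1 had one at Mixl1 (9.67%). MAC C/EBPβ had one at 3 genes, Tbx6, Hand1 and Mixl1 (37.7%), and MAC PU.1 at 4 genes, Eomes, Tbx6, Mixl1 and Gata4 (51.4%). T and Mesp1 had no peak of any list this close, and the nearest to T was a MAC PU.1 peak at 2509 bp.

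**Figure D3:**
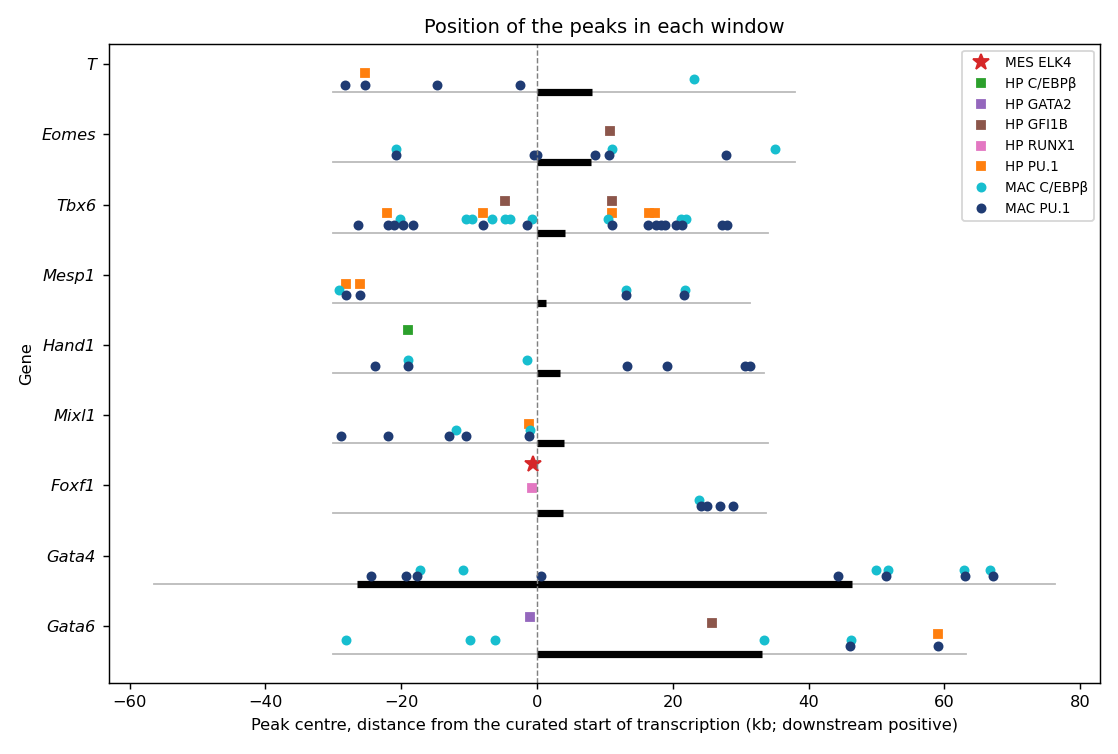
Distance in kb of each peak centre from the curated start of transcription of the gene in whose window it lies, with downstream positive. Thin grey lines are the windows, black bars the genes, and colours and symbols the lists. The MES ELK4 star and the HP RUNX1 square at Foxf1 lie at 637 and 739 bp from the start, and the HP squares of T, Mesp1 and Hand1 all lie over 15 kb from it.

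Among the T-box genes, T (GeneID 20997, chr17:8434423-8442496, plus strand) had the fewest peaks of the 9. Its window held 6 peaks from 3 lists, 1 of HP PU.1, 1 of MAC C/EBPβ and 4 of MAC PU.1. T was the closest curated coding start for all 6. With starts of any transcript, the MAC PU.1 peak 2509 bp upstream lay closer to the coding gene LOC115486424, at 746 bp. The HP PU.1 peak was centred 25264 bp upstream, in an intron of the neighbouring gene T2, and the MAC PU.1 list held a peak at 25263 bp (chr17:8408961-8409360). That HP PU.1 peak contained no GAGGAAGT but did contain 1 match to the C/EBP consensus, although no C/EBPβ list had a peak there. The other MAC PU.1 peaks lay 28340, 14801 and 2509 bp upstream, and the MAC C/EBPβ peak lay 23223 bp downstream. None of the lists used from the Bry.GFP+ MES and HB cells had a peak in the window of T.

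Eomes (GeneID 13813, chr9:118478186-118486132, plus strand) had 10 peaks from 3 lists, 1 of HP GFI1B, 3 of MAC C/EBPβ and 6 of MAC PU.1. A MAC PU.1 peak centred 50 bp downstream of the curated start overlapped an untranslated exon of the gene, and a second lay 479 bp upstream. The HP GFI1B peak was centred at 10712 bp downstream of the start, in an exon of the noncoding gene Gm33460, and overlapped a MAC C/EBPβ peak at 11004 bp and a MAC PU.1 peak at 10622 bp. No GFI1B consensus lay in that peak. A MAC C/EBPβ and a MAC PU.1 peak also overlapped at 20658 and 20682 bp upstream, in the noncoding gene Gm33408. Of the 10 peaks, 8 lay closest to Eomes and 2 to Golga4, a gene for a Golgi protein.

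Tbx6 (GeneID 21389, chr7:126781483-126785548, plus strand) had by count the most peaks, 33, with 2 of HP GFI1B, 5 of HP PU.1, 10 of MAC C/EBPβ and 16 of MAC PU.1. Only 2 of these lay closest to Tbx6 itself, a MAC C/EBPβ peak 692 bp and a MAC PU.1 peak 1526 bp upstream. The other 31 lay closest to Aldoa (10, a glycolytic enzyme), Ypel3 (7), Mapk3 (6, the kinase ERK1), Ppp4c (4, a phosphatase subunit), Gdpd3 (2) and Tlcd3b (2). No HP peak lay closest to Tbx6. The region at Ppp4c, chr7:126792270-126792701, was shared by HP GFI1B, HP PU.1 and MAC PU.1 and reached into an untranslated exon of that gene. Its GFI1B and PU.1 peaks in HP held 3 matches each to the ELK4 consensus CCGGAAGT and none to their own, and no ELK4 peak lay there in MES cells.

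Among the basic helix-loop-helix genes, Mesp1 (GeneID 17292, chr7:79792241-79793590, minus strand) had 9 peaks, 2 of HP PU.1, 3 of MAC C/EBPβ and 4 of MAC PU.1. Both HP PU.1 peaks (chr7:79819507-79819906 and chr7:79821454-79821853) lay upstream of Mesp1 at -26116 and -28063 bp and closest to its paralogue Mesp2, at 8979 and 10926 bp. MAC PU.1 peaks overlapped both of them. The first held 1 GAGGAAGT and the second none. Downstream of Mesp1, in introns of Wdr93, MAC C/EBPβ and MAC PU.1 peaks overlapped at 2 places, 13086 and 13055 bp and again 21766 and 21567 bp from the start. The closer of these is the repeat-rich run printed above, and 65.0% of its C/EBPβ peak and 59.5% of its PU.1 peak were soft-masked. Of the 9 peaks, 4 lay closest to Mesp1 and 5 to Mesp2. The MAC C/EBPβ peak closest to Mesp2 (chr7:79822479-79822878) lay in an intron of another gene, Anpep, 11951 bp from the start of Mesp2.

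Hand1 (GeneID 15110, chr11:57828713-57832147, minus strand) was the only one of the 9 genes with an HP C/EBPβ peak. It lay 19009 bp upstream, between genes, and overlapped a MAC C/EBPβ peak at 19000 bp and a MAC PU.1 peak at 18983 bp. Hand1 had 9 peaks in all, with 2 of MAC C/EBPβ and 6 of MAC PU.1 besides the HP peak. The second MAC C/EBPβ peak lay 1523 bp upstream and also held the C/EBP consensus. Of the 9 peaks, 6 lay closest to Hand1 and 3, all of MAC PU.1, to Sap30l, which encodes a subunit of a histone deacetylase complex.

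Mixl1 (GeneID 27217, chr1:180693043-180697034, minus strand) had 8 peaks, 1 of HP PU.1, 2 of MAC C/EBPβ and 5 of MAC PU.1. The HP PU.1 peak and a MAC PU.1 peak had the same start and end (chr1:180698075-180698474), 1240 bp upstream of the gene, and a MAC C/EBPβ peak at 1104 bp overlapped them. This was the only place within 2 kb of the start of any of the 9 genes that was held at HP and at MAC. None of the 3 peaks contained the consensus of its factor. The remaining peaks lay further upstream in MAC cells, and 2 of the MAC PU.1 peaks lay closest to Acbd3, at 68 and 7090 bp from its start.

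Foxf1 (GeneID 15227, chr8:121084386-121088154, plus strand) had 7 peaks from 4 lists, 1 each of MES ELK4, HP RUNX1 and MAC C/EBPβ and 4 of MAC PU.1. The MES ELK4 peak (chr8:121083550-121083949) and the HP RUNX1 peak (chr8:121083448-121083847) overlapped by 298 bp. Their centres lay 637 and 739 bp upstream of Foxf1, and that of the RUNX1 peak lay 537 bp from the start of Fendrr, a noncoding gene that starts upstream of Foxf1. These peaks were rich in G + C, at 72.0% for ELK4 and 68.0% for RUNX1, where the medians of their whole lists were 56.5% and 60.5%. Neither held the consensus of its own factor. Both lists were made largely of promoter peaks, with 64.9% of MES ELK4 and 60.9% of HP RUNX1 peaks within 2 kb of a coding start. No MAC peak overlapped the place, and the 5 MAC peaks of the window all lay over 23 kb downstream, 4 closest to Mthfsd and 1 closest to Foxc2.

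Among the GATA genes, Gata4 (GeneID 14463, chr14:63198914-63271712, minus strand) had no peak in the MES, HB, HE and HP lists used here. It had 6 MAC C/EBPβ and 8 MAC PU.1 peaks in the longest of the 9 windows, 132.8 kb. Its curated start lies inside the annotated span, which also covers transcripts from further upstream, and 1 MAC PU.1 peak lay 623 bp downstream of that start. Of the 14 peaks, 6 lay closest to Gata4, 4 to Fdft1 and 4 to Neil2. GATA2 in HB cells and GATA1 and GATA2 in HP cells had no peak in this window.

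Gata6 (GeneID 14465, plus strand, window of 93.1 kb) drew peaks from 5 lists, more than any other of the 9 genes, and was the closest coding start for all 10 of its peaks. They were 1 each of HP GATA2, HP GFI1B and HP PU.1, 5 of MAC C/EBPβ and 2 of MAC PU.1. The HP GATA2 peak was centred 1075 bp upstream, in an intron of the noncoding gene Gata6os, and was the only GATA factor peak in any of the 9 windows. It held no AGATAAG and 1 match to the shorter AGATAA. The HP GFI1B peak lay in an intron at 25751 bp, held no GFI1B consensus and held 1 AGATAAG. The HP PU.1 peak at 59076 bp downstream was matched by a MAC PU.1 peak at 59108 bp.

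The density of peaks placed the 9 windows among all coding windows. The median window of a regulator was 64.1 kb long and that of all coding genes 77.2 kb. A regulator had a median of 3 MAC C/EBPβ and 5 MAC PU.1 peaks, the same medians as over all coding windows. Per 100 kb of window the medians were 4.42 against 3.16 for MAC C/EBPβ and 6.52 against 5.32 for MAC PU.1. For HP PU.1 the median was 1 peak against 0. Tbx6 accounted for the extremes, with 15.6 MAC C/EBPβ, 25.0 MAC PU.1 and 7.80 HP PU.1 peaks per 100 kb, densities reached by 0.432%, 0.556% and 0.188% of coding windows. For the other 8 genes, between 30.0% and 67.9% of coding windows were at least as dense in MAC C/EBPβ peaks, and between 26.4% and 70.7% in MAC PU.1 peaks. Mesp1 followed Tbx6 in HP PU.1, with 3.26 peaks per 100 kb (5.38% of coding windows).

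**Figure D4:**
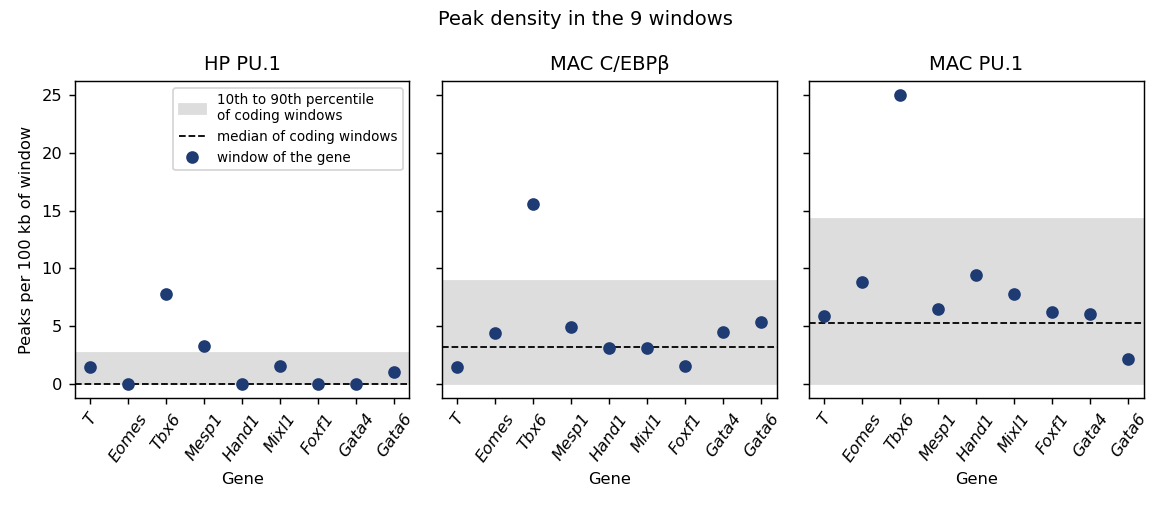
Peaks per 100 kb in the window of each mesoderm regulator (points) for HP PU.1, MAC C/EBPβ and MAC PU.1, with the median (dashed line) and the 10th to 90th percentile (grey band) of all coding windows. Tbx6 lies above the band in each panel, at 7.80, 15.6 and 25.0, and Mesp1 lies above it for HP PU.1.

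The windows held other genes, and this bore on whose peaks were counted. The regulator was the closest coding start for 50 of the 106 peaks (47.2%, 95% Clopper-Pearson interval 37.4 to 57.1, which like all intervals here covers counting error only). Without the Tbx6 window this share was 65.8%. Among the HP peaks, 8 of 17 lay closest to the regulator. A share of 38.2% of MAC PU.1 peaks (21 of 55, interval 25.4 to 52.3) and of 33.3% of MAC C/EBPβ peaks (11 of 33, 18 to 51.8) lay within 2 kb of some coding start. Among all peaks of these lists inside any coding-gene window, the shares were 21.5% and 19.9%. Of all 42 such peaks, 20 were in the Tbx6 window, and without that window the share over all lists went from 39.6% to 30.1%.

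The 106 peaks merged into 80 regions, of which 58 were held by 1 list, 22 by more than 1 list and 14 by more than 1 factor. The most lists at a region was 3, at 4 places: the Mixl1 region at 1104 bp, the Hand1 region at 19 kb, the Eomes region in Gm33460 and the Ppp4c region in the Tbx6 window. Of the 17 HP peaks, 14 overlapped a MAC peak, where 87.6% of all HP peaks did. The 3 that did not were HP RUNX1 at Foxf1 and HP GATA2 and HP GFI1B at Gata6, from lists in which 72.5%, 55.3% and 48.0% of all peaks overlapped a MAC peak. All 10 HP PU.1 peaks overlapped a MAC PU.1 peak (interval 69.2 to 100%), as did 97.0% of the whole HP PU.1 list. MAC C/EBPβ and MAC PU.1 overlapped at 8 of the 9 genes, T being the exception, and in 63% of coding windows, with 11 of 33 MAC C/EBPβ peaks shared (33.3%, 18 to 51.8, whole list 42.5%) and 11 of 55 MAC PU.1 peaks shared (20.0%, 10.4 to 33.0, whole list 28.5%). The whole-list shares lay within these intervals, which were not used as a test. They treat peaks as independent, although the Tbx6 window alone held 10 of the MAC C/EBPβ and 16 of the MAC PU.1 peaks.

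The consensus of the immunoprecipitated factor was counted in each 400 bp peak, on both strands. It was present in 15 of 33 MAC C/EBPβ peaks (45.5%, 28.1 to 63.6, whole list 41.9%) and in 10 of 55 MAC PU.1 peaks (18.2%, 9.08 to 30.9, whole list 24.4%). In the HP PU.1 list it was present in 2 of 10 peaks (20.0%, 2.52 to 55.6, whole list 42.1%). Over the 18 peaks outside the MAC lists, 4 held it: 1 HP C/EBPβ peak at Hand1, 1 HP GFI1B peak near Ypel3 and the HP PU.1 peaks near Mesp2 and in Gdpd3. By list this was 1 of 1 HP C/EBPβ peak (whole list 64.0%), 1 of 4 HP GFI1B peaks (44.9%), and 0 of 1 peak each for HP GATA2 (34.9%), HP RUNX1 (26.2%) and MES ELK4 (9.35%). For comparison, TTGCNNAA was found in 10.8% and GAGGAAGT in 3.20% of the 32851 RefSeq promoters of 300 bases, AATCNNNGC in 10.3%, TGTGGTT in 5.27%, AGATAAG in 3.04% and CCGGAAGT in 3.89%. A motif of T-box factors, AGGTGTGA, was in 2 of the 106 peaks (1.89%, 0.229 to 6.65). Those 2 were the overlapping HP and MAC PU.1 peaks near Ypel3 in the Tbx6 window, and the motif was in 1.43% of all HP PU.1 and 1.60% of all MAC PU.1 peaks. The shorter promoters of 300 bases held it in 1.28%. The promoters of T, Eomes, Tbx6 and Mesp1 were among the RefSeq promoters used, and none of the 4 held a consensus of the immunoprecipitated factors, whereas that of Mesp1 held 1 AGGTGTGA. The promoters of Hand1, Mixl1, Foxf1, Gata4 and Gata6 were not searched.

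A further 35 genes of the primitive streak and of paraxial, cardiac and hemato-vascular mesoderm were counted in the same way. Of these, 4 had a peak in the MES, HB or HE lists (background 14.8%), 23 in the HP lists (55.4%) and 33 in the MAC lists (83.4%). Gsc, a homeobox gene of the anterior streak, was the only one of the 35 with C/EBPβ peaks in both MES and HB, at 1576 and 1579 bp from its start, and HP C/EBPβ and HP PU.1 peaks lay at 1626 and 1418 bp. Lhx1, encoding a LIM-homeodomain factor, had C/EBPβ peaks at 2734 bp in HB and 2764 bp in HP, and Lefty2, encoding a Nodal antagonist, had them at 4207 bp in HB and 4173 bp in HP. Snai1, a repressor acting when cells leave the streak, had a MES ELK4 peak at 25969 bp. For the 9 regulators the count of C/EBPβ peaks in MES, HB and HE cells was 0, where 9.88% of coding windows had one, and the difference between the sets was not tested. The sets are not independent, because both HP and all 4 MAC peaks counted for Mesp2 were also counted for Mesp1, and 5 of the 8 MAC peaks of Foxc2 and of Foxl1 were also counted for Foxf1.

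In 9 regulators of blood formation (Runx1, Tal1, Gfi1, Gfi1b, Spi1, Cebpb, Lyl1, Fli1 and Gata2), 4 had a peak in the MES, HB or HE lists (Runx1, Tal1, Lyl1 and Fli1) and all 9 had one in the HP lists, against 14.8% and 55.4% of coding windows. The median number of HP peaks per window was 9 for these genes and 1 for the mesoderm regulators, and the median number of MAC peaks was 25 and 7. HP peaks within 2 kb of the gene's own start were present at 8 of 9 blood regulators and at 3 of 9 mesoderm regulators (Mixl1, Foxf1 and Gata6), against 18.5% of coding genes. Of 9 pluripotency genes, 1 had an early peak (Esrrb; background 14.8%), 5 had an HP peak (55.4%) and 8 a MAC peak (83.4%), shares near the background for HP and MAC, with medians of 1 HP and 4 MAC peaks. The blood regulators are not a neutral set. According to the paper, peak thresholds were judged by eye after inspection of known reference genes. For HP RUNX1 and HP C/EBPβ it also checked enrichment by quantitative PCR at an element of Spi1. The sets were chosen by name and their windows differ in length and gene content, so these counts are given side by side and the differences were not tested.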

How the data were processed

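The data used here were 14 lists of peaks from mouse cells, 1 list per factor and stage. The deposited values are genomic intervals (chromosome plus first and last base), another kind of value than a count or a signal, and come without scores, heights or depth. According to the methods of the study, the authors trimmed adapters with CutAdapt, aligned reads with Bowtie to mm10 (GRCm38), kept uniquely placed reads, removed duplicates with Picard and called peaks with MACS against the input of the same population, with a p-value threshold chosen by eye for each list. The peak data were further refined with polyPeak, each peak was set to 400 bp around its summit, and some lists merge technical runs. Bowtie, bedtools and mm10 are also named in the submitters' processing notes. The versions of Bowtie and bedtools are not given in the sources used here. List lengths, from 72 to 82866 peaks, therefore do not measure amounts of binding, and no sequencing depth was used.

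Here peaks were set against RefSeq GRCm38 genes with Python 3.11.15, pandas 2.3.3, NumPy 2.4.6 and SciPy 1.17.1. Starts of transcription were those of curated protein-coding transcripts (26032), distances run from peak centres, and overlap meant at least 1 bp. The background was all 21774 coding-gene windows, or 21000 genes with a curated start where distances to the start were used. The counting was tested on simulated peaks. With 1 list per group no test was possible. All 9 genes were named in every list. Other genes were named where a region was held by more than 1 list or lay within 2 kb of a start. They were also named for peaks of a MES, HB or HE list, and further gene lists only where they held a peak before the MAC stage. Genes closest to the remaining peaks, or holding them, were named after their counts were seen. The members and lists were chosen with earlier results of these data known. Window size, distance to a start, the transcripts used, the consensus and the gene background were varied.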

Additional observations from a re-analysis of the deposited data

How the results depend on the processing

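No paired analysis was possible because each group held 1 list, and no replicate could be left out. Of 105 alternative settings, 67 kept the value itself within the set margins, which does not compare it with its background. Windows of 10 kb left 42 peaks, 0 of 9 genes for HP C/EBPβ (11.3% of coding windows), 2 for HP PU.1 (30.8%) and 6 each for MAC C/EBPβ (67.9%) and MAC PU.1 (75.2%). The last 3 were thus no longer above their background, and MAC C/EBPβ lay close to it. Windows of 100 kb gave 317 peaks and 2 of 9 genes for MES ELK4 (11.6% of coding windows), 4 for HP C/EBPβ (34.4%, from below to above the background), 5 for HP GFI1B (28.9%), 3 for HP RUNX1 (19.4%) and 9 for HP PU.1 (66.5%). Requiring the closest coding start left 3 of 9 genes for HP PU.1 (26.5% of coding genes). Without the MAC C/EBPβ and MAC PU.1 lists, 12 combinations of list and gene were occupied. In the lists kept, the background share of coding windows ran from 0.423% (HB GATA2) to 44.1% (HP PU.1). Their joint share was not computed, so this count is not read against a background. The share of peaks near a coding start was 28.3% within 1 kb and 53.8% within 5 kb (54.5% for MAC PU.1). With starts of any transcript, the regulator was closest for 30.2% of all peaks and 25.5% of MAC PU.1 peaks. With shorter cores of the consensus (such as GAGGAA for PU.1), the share of peaks holding it was 67.9% over all lists, 70.0% for HP PU.1, 84.8% for MAC C/EBPβ and 60.0% for MAC PU.1. Leaving out the Tbx6 window, chosen after seeing the data, gave 30.1% within 2 kb of a coding start, and the regulator closest for 65.8% of all peaks, 69.6% of MAC C/EBPβ peaks and 59.0% of MAC PU.1 peaks. Taking all RefSeq genes as background moved the 14 background shares, for example to 5.76% for MES C/EBPβ and 71.6% for MAC PU.1. The lists hold no depth, so an absent peak may lie below the threshold of its list.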
